A study of Mus musculus with 12 samples.

Results

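The AP-1 and immediate early genes described here are 10 mouse genes, namely Fos, Fosb, Fosl1, Fosl2, Jun, Junb, Jund, Maff, Egr1 and Ier2. They were chosen by name, and every one of the 10 was found by its Ensembl number in both expression tables, among 28382 genes that the tables have in common. Kidney RNA was sequenced in 12 libraries from mice whose kidneys had been injured by a contrast agent, 3 in each of 4 groups. The groups were PAD4 knockout (Padi4 knockout, batch 1) with a wild type of its own, then libraries labelled IL-33 knockout (Il33 knockout, batch 2) with another wild type of their own. PAD4 converts arginine in histones to citrulline, a step of extracellular trap release by neutrophils, and IL-33 is an alarmin cytokine. The study's title puts IL-33 among the components of those traps and asks about injury of tubular epithelium.

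All mice of the 4 groups were male and 8 weeks old, and the wild type is given as C57BL/6. Each animal had lost a kidney by surgery 3 weeks before, went without water for 24 h, and received furosemide, a loop diuretic, 20 min before the contrast agent iodixanol entered the tail vein. The kidney was taken 24 h after iodixanol. The wild-type controls thus carry the same injury, and no group without contrast is among the samples analysed here. The knockout alleles and the background of the knockout mice are not given in the sources used.

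AP-1 is a dimer of basic leucine zipper proteins, in which a Jun protein pairs with a Fos protein or with another Jun protein and binds DNA. Fos, Fosb, Jun, Junb, Egr1 and Ier2 are immediate early genes, transcribed within minutes of a growth factor, cytokine or stress signal without new protein synthesis, and their transcripts are short-lived. Fosl1 and Fosl2 usually follow later, Jund is transcribed more steadily, and in injured kidney tubules this set is known for an early and transient rise.

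The stretches upstream of the transcription start are shown first, since these genes are known for control through short sites close to it. Of the 10 genes, 7 had a window in the RefSeq promoter table (GRCm38.p6), while Fosl1, Egr1 and Ier2 had none. The 150 bases before the start are printed for the genes whose stretch holds a searched motif and no annotated exon base, read 5′ to 3′ on the gene's strand, with the motif in capitals; Maff is shown for 2 of its starts.
Fos chr12:85473740-85473889, plus strand: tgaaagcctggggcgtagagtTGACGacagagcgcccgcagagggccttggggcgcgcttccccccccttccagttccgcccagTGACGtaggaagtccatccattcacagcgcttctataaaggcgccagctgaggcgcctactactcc
Jun chr4:95052223-95052372, minus strand: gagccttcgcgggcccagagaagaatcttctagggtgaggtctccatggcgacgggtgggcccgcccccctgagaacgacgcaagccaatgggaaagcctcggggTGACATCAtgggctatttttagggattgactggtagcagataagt
Junb chr8:84978749-84978898, minus strand: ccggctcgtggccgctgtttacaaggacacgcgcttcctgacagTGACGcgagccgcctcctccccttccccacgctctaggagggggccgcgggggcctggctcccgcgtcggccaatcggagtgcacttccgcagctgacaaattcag
Maff chr15:79347370-79347519, plus strand: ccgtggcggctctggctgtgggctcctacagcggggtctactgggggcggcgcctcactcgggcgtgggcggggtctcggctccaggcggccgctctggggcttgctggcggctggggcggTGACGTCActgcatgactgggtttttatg
Maff chr15:79348252-79348401, plus strand: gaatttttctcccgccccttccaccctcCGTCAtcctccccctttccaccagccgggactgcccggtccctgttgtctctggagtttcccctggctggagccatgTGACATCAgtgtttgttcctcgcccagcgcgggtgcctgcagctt
The motifs were searched on both strands in the 250 bases before the start. TGACATCA, the form of the AP-1 site known from Jun, stood at -45 to -38 from the start of Jun and at the same distance before a start of Maff, and 2.93% of all 32851 windows hold it. TGACGTCA, the cyclic AMP response element, stood at -29 to -22 before another Maff start and is found in 1.55% of windows. Its first 5 bases, TGACG, which overlap with it, were found before Fos at -129 to -125 and at -66 to -62, before Junb at -106 to -102 and before Fosb at -60 to -56; 17.8% of windows hold them on either strand. The stretch with TGACATCA before Maff also reads them from the opposite strand, as CGTCA at -122 to -118. The common AP-1 site TGANTCA, present in 6.75% of windows, and the CArG box bound by serum response factor, present in 1.47%, were not in any of the members' windows. A match describes letters in this window only.

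Levels are FPKM, a fragment count scaled by transcript length and by all mapped fragments, which can be compared between genes of the same library. The tables were normalized separately, with FPKM sums of 700601 to 812981 for the PAD4 set and 385124 to 420279 for the IL-33 set, so no level is tested between them. FPKM holds no sequencing depth, and the depth behind each value is unknown. Padi4 was lower in the knockout of its set but not at 0, with 0.217, 0.497 and 0.187 FPKM in PAD4 knockout kidneys against 0.704, 1.06 and 1.67 FPKM in wild-type kidneys (-0.71; limma adjusted p = 0.0147). Neutrophil markers such as Ly6g (-1.24) and Retnlg (-1.89) fell in the same libraries, and so did Il33, at 0.889, 1.58 and 1.28 FPKM in PAD4 knockout against 3.57, 5.29 and 3.28 FPKM in wild type (-1.15; limma adjusted p = 0.00208), so the level of Padi4 does not by itself check the label. Il33 was at 1.14, 0.616 and 1.02 FPKM in kidneys labelled IL-33 knockout against 1.71, 1.13 and 3.64 FPKM in its wild type, an overlap that did not pass the threshold (limma adjusted p = 0.0990), so the genotype there rests on the label too. All 8 markers of kidney tubule passed the filter on low values in both tables. Their summed level was 276 to 944 FPKM in PAD4 knockout and 159 to 321 FPKM in its wild type. In the other table it was 3695 to 4375 FPKM in libraries labelled IL-33 knockout and 1924 to 2839 FPKM in their wild type. Transcripts of the mitochondrial genome took 52.0% to 60.0% of the FPKM sum in the PAD4 set and 24.1% to 29.2% in the IL-33 set, so the levels are not compared between the sets.

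In PAD4 knockout kidneys 9 of the 10 genes had a lower mean than in wild type, and in 8 of the 10 every knockout library lay below every wild-type library. Fos, Fosl2, Jun, Jund, Maff and Ier2 passed the test and fell, to 33.7% to 47.0% of the wild-type mean; Junb, Egr1 and Fosl1 did not pass it. In kidneys labelled IL-33 knockout all 9 genes tested fell, and in all 10 the groups did not overlap. Fosl1 there stood at 0.0886% of its wild-type mean, Maff at 3.97%, Egr1 at 7.19%, and Jund, the least reduced, at 40.9%. A change is the knockout mean minus that of wild type in log2(FPKM + 1), a scale that shrinks changes of low genes. Their median was -1.08 over the 9 members tested for PAD4, against 0.016 over all 13986 genes, and -2.38 for the IL-33 set, against 0.044 over all 14513 genes.

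These counts are read against those of all genes. At a limma adjusted p under 0.05, 8.79% of tested genes were called lower and 8.89% higher in PAD4 knockout, and the members gave 6 lower and 0 higher of 9. For the IL-33 set 16.8% of tested genes were called lower and 22.2% higher, and the members gave 9 lower and 0 higher of 9. Groups that do not overlap, with the knockout lower, made up 11.9% of genes with any value above 0 in the PAD4 table and 15% in the IL-33 table. With 3 libraries against 3, an exact two-sided permutation test cannot go below p = 0.1, which is its value wherever the groups do not overlap. In whole kidney, fewer cells of a type and less RNA per cell cannot be told apart.

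**Figure D1:**
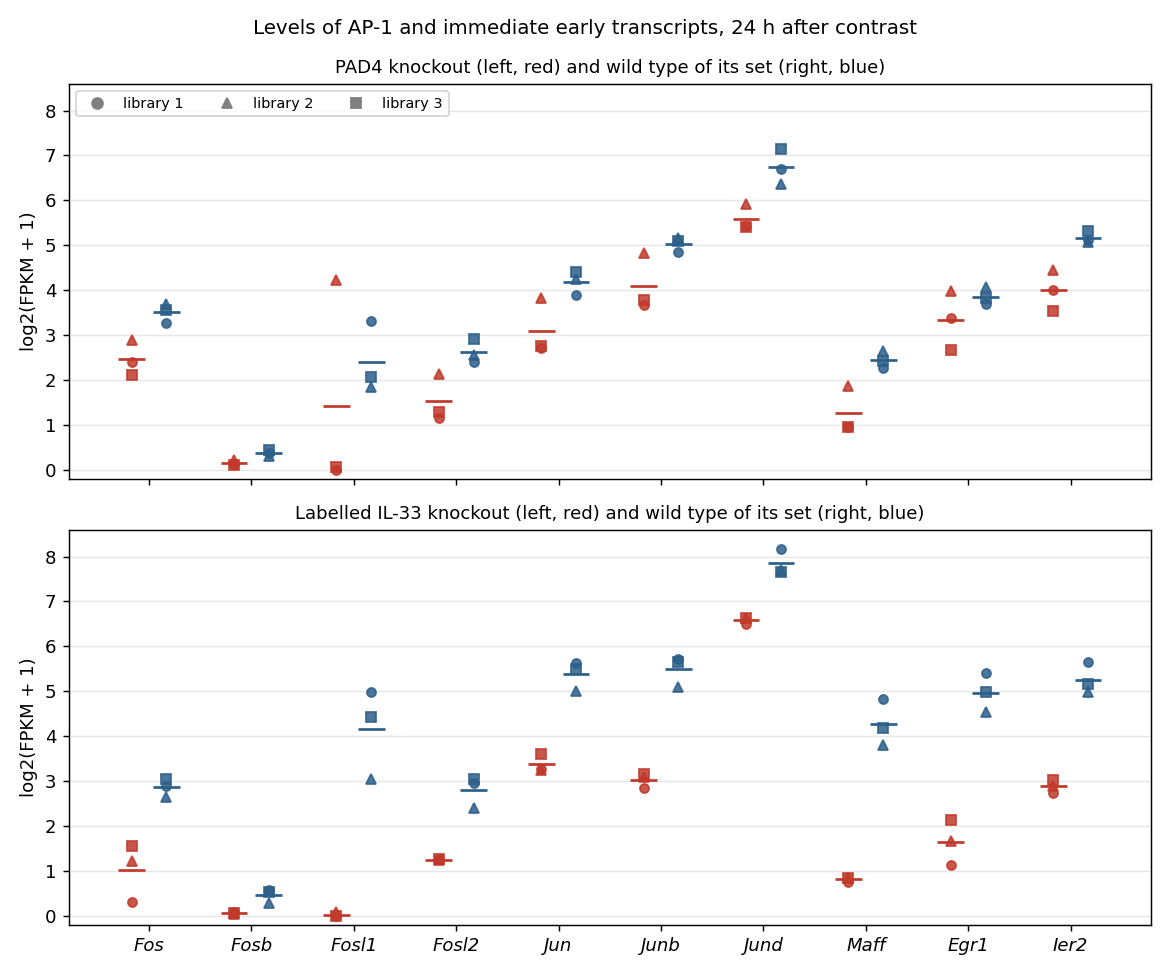
Level of the 10 genes in each library as log2(FPKM + 1), knockout left of its wild type, with a symbol for each library number and a short line for the mean of each group. In the IL-33 set the knockout points of every gene lie below all wild-type points, and in the PAD4 set Fosl1 and Egr1 overlap.

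Fos encodes c-Fos, the founding partner of Jun in AP-1. It stood at 4.26, 6.44 and 3.32 FPKM in PAD4 knockout libraries against 8.61, 12.0 and 10.8 FPKM in wild type. Every knockout kidney was lower than every wild-type kidney, and the change was -1.04 ± 0.27 (SE; limma adjusted p = 0.0129). In the libraries labelled IL-33 knockout Fos was at 0.233, 1.31 and 1.92 FPKM against 6.43, 5.23 and 7.31 FPKM in wild type. On the log2 scale the knockout libraries spread more than the wild-type ones here, with library 1 well below the other two. In FPKM the SD was 0.855 in knockout and 1.04 in wild type. The change was -1.84 ± 0.30 (SE; limma adjusted p = 0.00257).

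Fosb encodes FosB, which can replace c-Fos in the dimer. Its mean was below the filter of 0.5 FPKM in both tables, and it therefore has no limma test. Its values were 0.0905, 0.169 and 0.0772 FPKM in PAD4 knockout against 0.290, 0.242 and 0.353 FPKM in wild type. They were 0.0561, 0.0282 and 0.0382 FPKM in libraries labelled IL-33 knockout against 0.492, 0.214 and 0.440 FPKM in wild type. Knockout and wild-type values did not overlap in either set, at levels far below those of the other members.

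Fosl2 encodes Fra-2, a Fos protein without the strong activation domain of c-Fos. It measured 1.22, 3.38 and 1.44 FPKM in PAD4 knockout against 4.30, 4.89 and 6.57 FPKM in wild type (-1.10 ± 0.27 SE; limma adjusted p = 0.00807). Knockout library 2 came nearest to the wild type but stayed below it. The libraries labelled IL-33 knockout were nearly alike at 1.39, 1.35 and 1.39 FPKM, against 6.73, 4.29 and 7.28 FPKM in wild type, a change of -1.55 ± 0.18 (SE; limma adjusted p = 0.000538).

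Fosl1, which encodes Fra-1, varied most between libraries of the PAD4 set. It was listed at 0 in PAD4 knockout library 1, at 17.8 FPKM in library 2 and at 0.0376 FPKM in library 3, against 8.94, 2.59 and 3.17 FPKM in wild type. Knockout library 2 was thus above all wild-type libraries and the other two below them, and the difference did not pass the test (-0.98 ± 0.71 SE; limma adjusted p = 0.385; exact permutation p = 0.6). Its sign depends on the scale, since the mean FPKM was 5.96 in knockout and 4.90 in wild type, or 122% of wild type, through library 2. In the libraries labelled IL-33 knockout it was listed at 0, 0.0516 and 0 FPKM, against 30.6, 7.30 and 20.3 FPKM in wild type. The groups lay far apart, the change was -4.13 ± 0.43 (SE; limma adjusted p = 0.000359), and it ranked 13 among the falls of all 14513 genes. Fosl1 overlaps Ccdc85b on the opposite strand in GENCODE, whose mean was 9.42 FPKM in the PAD4 table and 10.9 FPKM in the IL-33 table, and whether strand was used in counting is not given in the sources used here.

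Jun encodes c-Jun, the best-known Jun partner of c-Fos. It was at 5.52, 13.1 and 5.74 FPKM in PAD4 knockout against 13.8, 17.9 and 20.2 FPKM in wild type, a change of -1.08 ± 0.32 (SE; limma adjusted p = 0.0240). Knockout library 2 nearly reached the lowest wild-type library. The libraries labelled IL-33 knockout had 8.56, 8.50 and 11.2 FPKM against 48.3, 31.3 and 44.0 FPKM in wild type (-2.00 ± 0.18 SE; limma adjusted p = 0.000201).

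Junb encodes JunB, which can oppose c-Jun at some promoters. Its values in PAD4 knockout were 11.7, 27.5 and 12.7 FPKM against 28.0, 34.5 and 32.9 FPKM in wild type. The groups did not overlap, by a narrow margin at knockout library 2, and the change of -0.94 ± 0.33 missed the threshold (SE; limma adjusted p = 0.0585). In libraries labelled IL-33 knockout Junb was at 6.13, 7.51 and 7.86 FPKM against 51.7, 33.4 and 49.3 FPKM in wild type, with a wide gap between the groups (-2.47 ± 0.18 SE; limma adjusted p = 8.52e-05). Junb overlaps Prdx2 on the opposite strand, with means of 26.7 FPKM in the PAD4 table and 49.0 FPKM in the IL-33 table.

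Jund encodes JunD, which is present in resting cells and is less dependent on acute signals. It stood at 42.2, 59.4 and 41.4 FPKM in PAD4 knockout against 103, 81.7 and 139 FPKM in wild type (-1.15 ± 0.33 SE; limma adjusted p = 0.0212). It stood at 89.5, 97.6 and 97.9 FPKM in libraries labelled IL-33 knockout against 287, 207 and 202 FPKM in wild type (-1.26 ± 0.14 SE; limma adjusted p = 0.000514). Groups were apart in both sets, and Jund was the most abundant of the 10 genes in each of the 4 groups, with a range that did not touch the next gene's.

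Maff encodes MafF, a small Maf protein that has no activation domain and pairs with other basic leucine zipper proteins such as NRF2. It was at 0.946, 2.66 and 0.925 FPKM in PAD4 knockout against 3.78, 5.28 and 4.38 FPKM in wild type. All knockout libraries were below all wild-type ones, and the change of -1.19 ± 0.26 had the smallest p of the members in that set (SE; limma adjusted p = 0.00408). In libraries labelled IL-33 knockout Maff was at 0.690, 0.802 and 0.788 FPKM against 27.5, 12.9 and 17.1 FPKM in wild type. The groups were wide apart there (-3.45 ± 0.24 SE; limma adjusted p = 7.32e-05).

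Egr1 encodes a zinc finger activator that is induced by the same kinases as Fos. In PAD4 knockout it measured 9.37, 14.9 and 5.31 FPKM against 11.9, 15.7 and 13.1 FPKM in wild type. Knockout library 2 lay inside the wild-type range, and the difference did not pass the test (-0.51 ± 0.32 SE; limma adjusted p = 0.298; exact permutation p = 0.3). The libraries labelled IL-33 knockout measured 1.20, 2.16 and 3.38 FPKM against 41.1, 22.2 and 30.5 FPKM in wild type, a change of -3.33 ± 0.29 (SE; limma adjusted p = 0.000179).

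Ier2 encodes a small nuclear protein whose transcript is induced with Fos. It was at 15.0, 21.0 and 10.6 FPKM in PAD4 knockout against 33.7, 32.4 and 39.2 FPKM in wild type (-1.17 ± 0.31 SE; limma adjusted p = 0.0139). In libraries labelled IL-33 knockout it was at 5.63, 6.45 and 7.11 FPKM against 49.4, 30.4 and 34.5 FPKM in wild type (-2.38 ± 0.18 SE; limma adjusted p = 0.000101). In both sets the highest knockout library was below the lowest wild-type library.

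The PAD4 knockout libraries did not behave alike. Library 2 held the highest knockout value of all 10 members, while library 3 held the lowest for 6 and library 1 for 4. Taken against the wild-type mean, the median of the 9 tested members was -1.36, -0.50 and -1.40 in PAD4 knockout libraries 1, 2 and 3, and -0.17, 0.064 and 0.054 in the wild-type libraries. The place of library 2 was not particular to the members. In the same order, medians were -2.84, -1.19 and -1.69 for colon markers and 2.41, 0.78 and 1.58 for kidney tubule markers. With all libraries the test called 6 members and 1230 of 13986 genes lower. Without knockout library 2 it called 8 members lower, Junb and Fosl1 with them, and 1755 genes. Without knockout library 3 it called 2 members and 785 genes lower, and without wild-type library 1 it called 3 members and 745 genes. Without wild-type library 3 it called 1 member, Maff, and 530 genes lower. With no filter on low values limma called 0 of 32199 genes in the PAD4 table, and 8 members had an unadjusted p under 0.05. Medians in the libraries labelled IL-33 knockout were -2.56, -2.36 and -2.24, against 0.32, -0.39 and 0.12 in wild type, and wild-type library 2 was the lowest of its group for 9 of the 10 genes. Leaving out any library of that set kept the count of members called lower at 9, in fits that called 1550 to 2670 of 14513 genes lower.

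**Figure D2:**
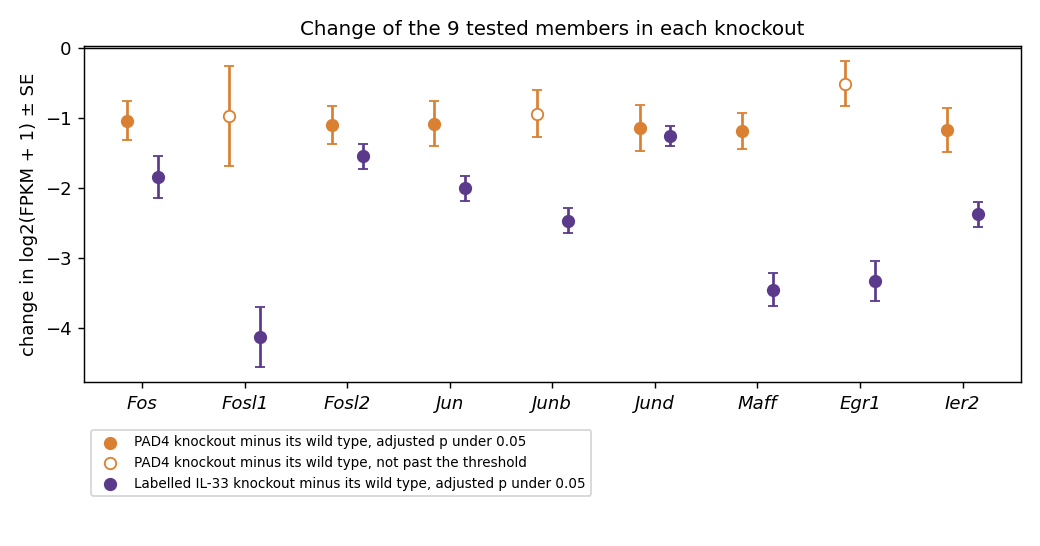
Change of each gene tested in log2(FPKM + 1), knockout less wild type, with limma's SE as bars, for the PAD4 comparison and for that of the libraries labelled IL-33 knockout. All changes on this scale are below 0, from -1.19 to -0.51 for PAD4 and from -4.13 to -1.26 for the IL-33 set; for Fosl1 in PAD4 knockout the mean FPKM itself was higher than in wild type.

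Whether both knockouts changed these genes by the same amount was tested as the PAD4 change minus the IL-33 change over all 12 libraries and 13010 genes; the comparisons share no control library. Over all genes 6.23% were called with a positive difference and 6.18% with a negative one, and the members gave 4 positive and 0 negative of 9. With median-of-ratios scaling the split over all genes was 1877 positive and 1228 negative, in place of 811 and 804, and the members gave the same counts. Egr1 differed most among those called (2.81 ± 0.45 SE; limma adjusted p = 0.00143), followed by Maff (2.27 ± 0.37 SE; adjusted p = 0.00164), Junb (1.53 ± 0.39 SE; adjusted p = 0.0179) and Ier2 (1.21 ± 0.33 SE; adjusted p = 0.0289). Each had a less negative change in PAD4 knockout, where Egr1 and Junb did not pass on their own, than in the libraries labelled IL-33 knockout. The difference did not pass the threshold for Fosl1 (3.15 ± 1.19 SE; limma adjusted p = 0.101), Jun (0.92 ± 0.39 SE; adjusted p = 0.142), Fos (0.80 ± 0.39 SE; adjusted p = 0.203), Fosl2 (0.45 ± 0.34 SE; adjusted p = 0.430) or Jund (0.11 ± 0.33 SE; adjusted p = 0.862). The sets differ in batch as well as in genotype, and these cannot be told apart. Without IL-33 knockout library 1 the count of members called was 2, in a fit that called 532 of 13010 genes positive and 550 negative.

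Levels can also be ordered within each group. In the libraries labelled IL-33 knockout Jund led, followed by Jun, both clear of the next gene, and Junb and Ier2 overlapped with each other; Egr1, Fosl2, Fos and Maff formed a chain of overlapping neighbours, above Fosb and Fosl1. In the wild type of that set Junb, Jun, Ier2, Egr1, Fosl1 and Maff followed Jund as overlapping neighbours, then Fos and Fosl2, then Fosb; the lowest Fosl1 library, at 7.30 FPKM, was within the range of Fos. In PAD4 knockout every neighbour from Junb to Maff overlapped. In its wild type Ier2 and Junb came after Jund, then Jun, Egr1 and Fos, then Fosl2, Fosl1 and Maff, then Fosb. Fosl1 spanned 2.59 to 8.94 FPKM there and so reached into the range of Fos, 8.61 to 12.0 FPKM.

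The summed level of the 7 AP-1 subunits (4 Fos and 3 Jun family genes) was 65.0, 128 and 64.7 FPKM in PAD4 knockout against 167, 154 and 213 FPKM in wild type. It was 106, 116 and 120 FPKM in libraries labelled IL-33 knockout against 432, 289 and 331 FPKM in wild type. The makeup of that sum moved in the IL-33 set, where Jund took 84.5%, 83.9% and 81.4% of it in the libraries labelled knockout and 66.6%, 71.7% and 61.1% in wild type. The Fos family took 1.59%, 2.35% and 2.78% of the sum in those knockout libraries, against 10.3%, 5.90% and 10.7% in wild type, so the groups did not overlap. In the PAD4 set the shares overlapped. Jund took 64.9%, 46.5% and 64.0% in knockout and 61.7%, 53.1% and 65.3% in wild type, and the Fos family took 8.57%, 21.8% and 7.54% in knockout and 13.3%, 12.8% and 9.80% in wild type. In PAD4 knockout library 2 Fosl1 alone made up 14.0% of the sum.

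**Figure D3:**
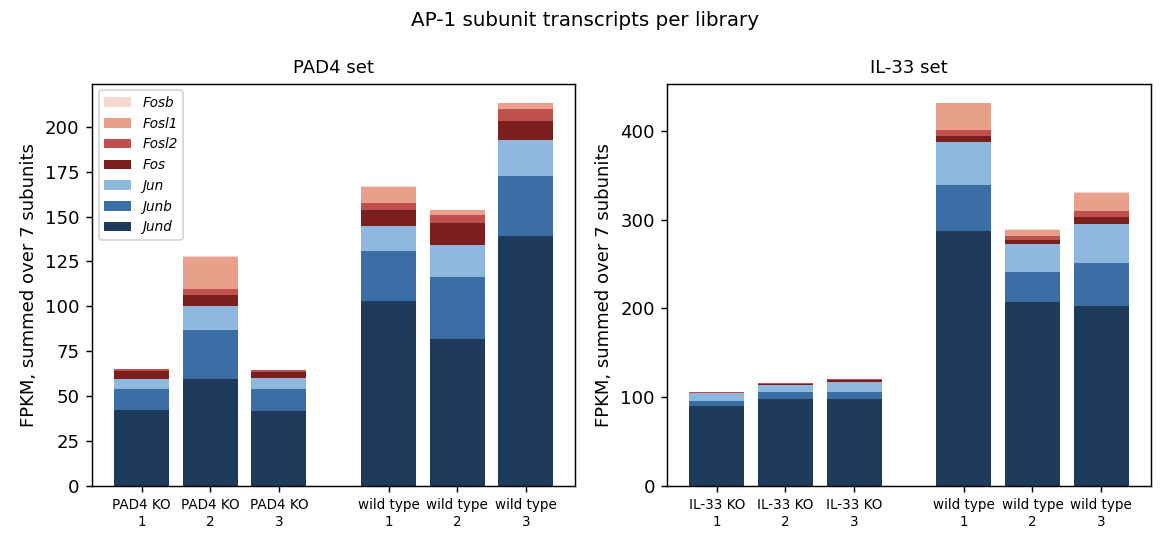
Summed FPKM of the 7 AP-1 subunits in each library, stacked by gene, with knockout libraries left of wild type in each set. Jund fills most of the bar in every library but PAD4 knockout library 2 (46.5%), with its largest shares in the libraries labelled IL-33 knockout. Fosl1 is visible in PAD4 knockout library 2.

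Calls in this and the following lists stand beside the shares over all tested genes. Those were 8.79% lower and 8.89% higher in PAD4 knockout, and 16.8% lower and 22.2% higher in the IL-33 set. Other immediate early genes, a list of 20 that includes the feedback factors Dusp1 and Zfp36, also had negative median changes in both sets. In PAD4 knockout 8 of 16 tested fell and 0 rose, with a median change of -0.94. Btg2, an antiproliferative factor, averaged 8.87 ± 2.28 FPKM in PAD4 knockout and 21.6 ± 3.21 FPKM in wild type (SD, n = 3 libraries each; limma adjusted p = 0.00687). Ier5 (-1.11), Ier3 (-1.25) and Csrnp1 (-1.04) fell as well, with limma adjusted p of 0.00735, 0.0107 and 0.0107. In libraries labelled IL-33 knockout 15 of 16 tested fell and 0 rose, with a median of -1.22, and Arc did not pass (-0.28, limma adjusted p = 0.668). Myc, the growth regulator, averaged 2.36 ± 0.0831 FPKM there and 18.7 ± 2.72 FPKM in wild type (SD, n = 3 each; limma adjusted p = 2.21e-05). Sik1, a kinase induced by cyclic AMP, changed by -1.29, Btg2 by -3.10 and Atf3, a stress-induced basic leucine zipper factor, by -3.18. Myc did not pass in PAD4 knockout, where its change was 0.72 (limma adjusted p = 0.172).

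Other basic leucine zipper partners had smaller median changes than the members. Of 13 tested in PAD4 knockout 3 fell and 0 rose (median -0.37), namely Batf, Batf3 and Batf2, which pair with Jun proteins in immune cells. Batf averaged 0.143 ± 0.160 FPKM in PAD4 knockout and 1.29 ± 0.412 FPKM in wild type (SD, n = 3 each; limma adjusted p = 0.00115). Of 11 tested in the IL-33 set 4 fell and 1 rose (median -0.14). Maf, a large Maf protein, rose by 1.48 to 15.7 ± 2.32 FPKM in libraries labelled IL-33 knockout, against 4.99 ± 0.706 FPKM in wild type (SD, n = 3 each; limma adjusted p = 0.000279). Atf4, a factor of the integrated stress response, fell (-1.26), as did Nfe2l2, which encodes NRF2 (-1.12), and Mafk, another small Maf (-1.15).

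Kinases and regulators upstream of these genes had smaller median changes than the members. Of 16 tested in PAD4 knockout 2 fell and 0 rose (median -0.25), namely Mapk3, which encodes ERK1 (-0.97, limma adjusted p = 0.0309), and Elk3, a partner of serum response factor (-0.71, adjusted p = 0.0473). In the IL-33 set 5 of 17 fell and 1 rose (median -0.034), where 16.8% of all tested genes were called lower and 22.2% higher. Crem (-1.04) and Elk4 (-1.03) fell in libraries labelled IL-33 knockout, and Mapk14, which encodes the kinase p38 alpha, rose (0.82, limma adjusted p = 0.00357).

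Feedback inhibitors, which are phosphatases of the kinases, Sprouty proteins that dampen receptor signalling, and factors that destabilise the transcripts, fell in 3 of 13 tested in PAD4 knockout and rose in 0 (median -0.60). Dusp5, a phosphatase of ERK, averaged 1.47 ± 1.09 FPKM in PAD4 knockout and 5.17 ± 1.03 FPKM in wild type (SD, n = 3 each; limma adjusted p = 0.00196). In the IL-33 set 8 of 13 fell and 0 rose (median -0.55). Dusp5 changed by -3.13 in libraries labelled IL-33 knockout, Dusp8 by -1.82, and Zfp36 and Zfp36l1, which bind AU-rich elements and speed decay, by -1.38 and -1.49.

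Genes known as AP-1 targets moved in both directions. In PAD4 knockout 7 of 13 tested fell and 2 rose (median -0.77). The genes that rose were Ccnd1, which encodes cyclin D1, at 16.5 ± 7.25 FPKM in PAD4 knockout and 2.97 ± 0.855 FPKM in wild type (limma adjusted p = 0.000235), and Plau, which encodes urokinase, at 78.2 ± 23.3 FPKM in knockout and 22.4 ± 4.99 FPKM in wild type (SD, n = 3 each; limma adjusted p = 0.00143). Mmp3, a matrix protease (-1.22), and Areg, a ligand of the EGF receptor (-1.02), fell. In the IL-33 set 6 of 10 tested fell and 1 rose, again Ccnd1 (2.38), with a median of -1.86. Plaur, the urokinase receptor, averaged 1.72 ± 0.177 FPKM in libraries labelled IL-33 knockout and 22.7 ± 9.34 FPKM in wild type (SD, n = 3 each; limma adjusted p = 0.000303). Spp1, which encodes osteopontin (-2.00), and Hbegf, an EGF family ligand (-1.90), fell as well.

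**Figure D4:**
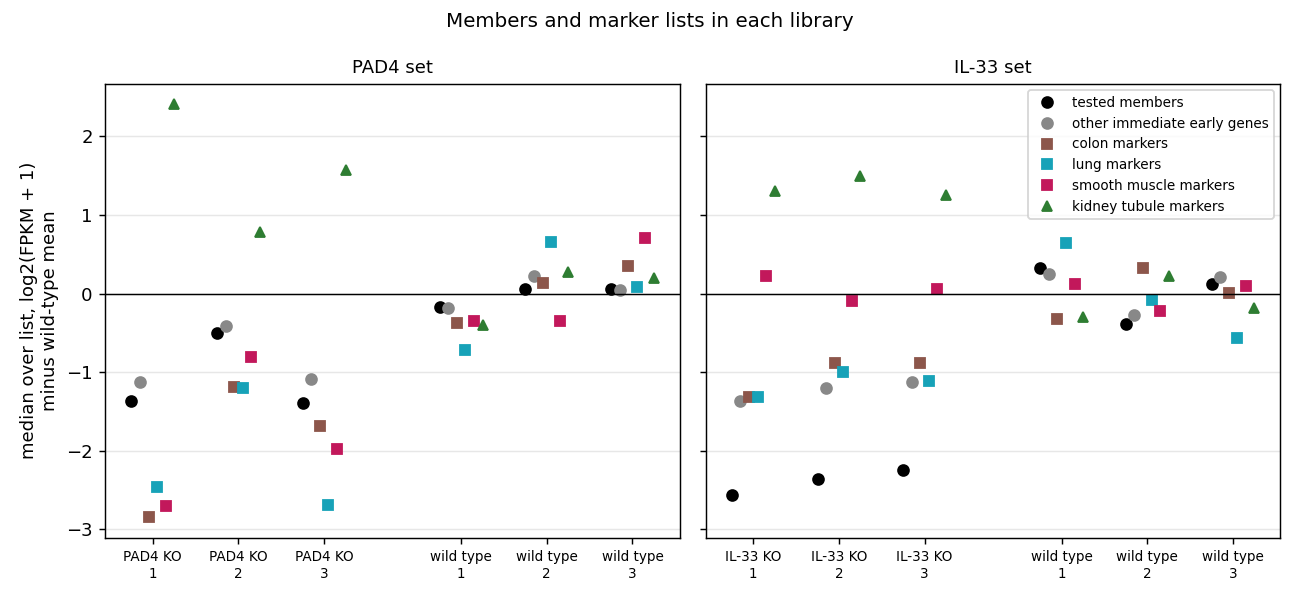
Median per library of the tested members, the other immediate early genes and the tested markers of colon, lung, smooth muscle and kidney tubule, as log2(FPKM + 1) minus the wild-type mean of the set, with knockout (KO) left of wild type. PAD4 knockout library 2 lies nearest to 0 among the PAD4 knockout libraries for the members (-0.50) and for every other list shown. Medians of the tested colon and lung markers lie below 0 in every knockout library, from 10 and 7 genes in the PAD4 set. In the IL-33 set the colon median is taken over 2 genes with changes of opposite sign, Lgals4 and Guca2a. The lung value there is 1 gene, Ager.

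Several lists of markers of other tissues and cells fell together with the members in the PAD4 set. Of 10 colon markers 10 fell, with summed levels of 110 to 172 FPKM in PAD4 knockout and 294 to 476 FPKM in wild type. All 7 lung markers fell, at 42.4 to 207 FPKM in PAD4 knockout and 294 to 840 FPKM in wild type. Smooth muscle markers fell in 7 of 8 (62.8 to 241 FPKM in knockout, 346 to 745 FPKM in wild type), neutrophil markers in 4 of 7 tested (9.57 to 57.0 FPKM in knockout, 49.4 to 166 FPKM in wild type) and macrophage markers in 3 of 6 tested (33.0 to 70.4 FPKM in knockout, 76.9 to 151 FPKM in wild type). The macrophage markers did not all go the same way. Lyz2 held 46.4, 114 and 89.5 FPKM of macrophage sums of 76.9, 151 and 145 FPKM in wild-type libraries 1, 2 and 3. Csf1r was higher in PAD4 knockout without passing the threshold (0.88, limma adjusted p = 0.0570), and C1qa and C1qb did not pass it. Endothelial markers gave 0 of 6 past the threshold, and 4 of 8 tubule markers rose. Adding the mean of the colon and lung markers as a covariate to the PAD4 fit left 0 members called lower and called Fosl1 higher (2.65 ± 0.57 SE; limma adjusted p = 0.00126). Over all 13986 genes that fit called 14 lower and 55 higher. Fosl1 stood at 0, 17.8 and 0.0376 FPKM in knockout libraries 1, 2 and 3, so that only library 2 was high. The marker mean itself did not overlap between the groups, at 2.11, 3.52 and 2.52 on the log2 scale in PAD4 knockout and 4.16, 5.01 and 4.78 in wild type. Genotype and marker level therefore cannot be told apart.

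In the IL-33 set these markers were low. The IL-33 table lists 6 of the 10 colon and 3 of the 7 lung markers. Summed colon markers were 5.25 to 7.57 FPKM in libraries labelled IL-33 knockout and 20.4 to 41.2 FPKM in wild type. Summed lung markers were 0.343 to 0.594 FPKM in those knockout libraries and 1.32 to 3.99 FPKM in wild type. Single genes made up most of these wild-type sums. Lgals4 alone held 18.8, 39.1 and 20.5 FPKM in wild-type libraries 1, 2 and 3, and Ager held 3.99, 2.01 and 1.15 FPKM. Of the 2 colon markers tested, Lgals4 fell (-2.45 ± 0.25 SE; limma adjusted p = 0.000363). Guca2a was higher in the libraries labelled knockout, at 3.03 against 2.05 FPKM on average, and did not pass (0.39, limma adjusted p = 0.191). The single lung marker tested, Ager, fell (-1.14 ± 0.28 SE; adjusted p = 0.0157). Smooth muscle markers gave 0 calls of 5 tested and neutrophil markers 0 of 4. Macrophage markers rose in 6 of 7 and fell in 1, at 73.0 to 79.0 FPKM in libraries labelled IL-33 knockout and 21.2 to 38.1 FPKM in wild type, and 5 of 8 tubule markers rose; their part in the members' change was not tested. The colon and lung covariate rests there on 3 genes, Lgals4, Guca2a and Ager. With it 0 members were called, in a fit that called 4 of 14513 genes lower and 5 higher. Of the members, 7 of 9 had an unadjusted p under 0.05 with limma. The marker mean did not overlap between these groups either. On the log2 scale it was 1.34, 1.73 and 1.69 in libraries labelled IL-33 knockout and 2.65, 2.84 and 2.46 in wild type. Genotype label and marker level therefore cannot be told apart in this set.

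Likeness to the members over the 12 libraries was measured as the root mean square difference in log2(FPKM + 1), each gene centred on 0 within its table, over 4146 genes with a mean of at least 5 FPKM in each table. The genes nearest to the mean of the tested members were Sfn (0.196), Rhoc (0.204), Rasd1 (0.216), Ifrd1 (0.227) and 2410006H16Rik (0.243), where the median of all genes was 1.06 and that of the members themselves 0.372. Sfn, which encodes 14-3-3 sigma, changed by -1.10 in PAD4 knockout and by -2.82 in libraries labelled IL-33 knockout. Nearest to Fos were Rasd1 (0.270), Stat3 (0.274), Eif6 (0.284), Ctsl (0.299) and Nr4a1 (0.318), with a median of 0.868 over all genes. Stat3, a transcription factor of cytokine signalling, changed by -1.11 in PAD4 knockout and by -1.59 in libraries labelled IL-33 knockout. Apart from Nr4a1, none of these genes is on the immediate early list.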

How the data were processed

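Poly(A)-selected, strand-specific libraries of kidney RNA were sequenced, per the labels' protocols. Per the file headers, the authors deposited FPKM values as 2 tables, with each library in its own column. Per the submitters' processing notes, FastQC, cutadapt, HISAT2, StringTie, DESeq2 and edgeR were used; the sources used here give neither genome build nor annotation. Wild-type columns of the IL-33 table carry no genotype and were mapped by batch and number. GENCODE gave symbols to 30212 of 32199 and 29690 of 31719 genes.

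Within each table, log2(FPKM + 1) was taken for genes that averaged 0.5 FPKM or more, and was fitted with limma 3.58.1 in R 4.3.3 (lmFit, eBayes with trend), with Benjamini-Hochberg adjustment over all genes, a threshold of 0.05 and two-sided tests. SEs are limma's moderated ones; levels are means ± SD over 3 libraries. The labels do not say that a replicate number marks a shared litter or day, and same-numbered libraries did not deviate together. The members, lists and tests were chosen with earlier results of these data known, and support from them is not independent. All members were named; from each list of neighbouring genes up to 4 with the smallest p were named, with a few others that stand out, chosen after their values were seen. A gene that the rule names among the AP-1 targets is not reported here. Promoter windows are RefSeq's for GRCm38.p6. Other settings tried were other pseudocounts (0.1, 0.5), a filter at 2 FPKM or none, 4 other scalings, no variance trend, array weights, a replicate block, a marker covariate and each library left out.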

Additional observations from a re-analysis of the deposited data

Results flagged for a closer look

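Egr1, Maff, Junb and Ier2 had changes that differed between the knockouts by a test of the difference itself (PAD4 change minus IL-33 change, log2 scale). The difference was 2.81 for Egr1, 2.27 for Maff, 1.53 for Junb and 1.21 for Ier2. In all of them the change was less negative in PAD4 knockout. There Egr1 (limma adjusted p = 0.298) and Junb (adjusted p = 0.0585) did not pass the test on their own. Without IL-33 knockout library 1 the test called Egr1 (2.56 ± 0.46 SE; limma adjusted p = 0.00427) and Maff (2.24 ± 0.41 SE; adjusted p = 0.00506). Junb (limma adjusted p = 0.0521) and Ier2 (adjusted p = 0.0818) did not pass there. Ier2 also missed the threshold without IL-33 knockout library 2 (limma adjusted p = 0.0625) or 3 (0.0502). The same held without wild-type library 1 of the IL-33 set (limma adjusted p = 0.0724). It held too without wild-type library 1 (limma adjusted p = 0.0519) or 2 (0.0657) of the PAD4 set, and with no filter (0.0527). Genotype and batch cannot be told apart in this difference.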

How the results depend on the processing

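Of 162 member values recomputed for the PAD4 comparison, 122 kept their direction and their side of the threshold, 25 lost the call, 9 gained one and 6 turned in sign. For the IL-33 set 153 of 162 kept both and 9 lost the call, all under the marker covariate. For the difference 192 of 207 kept both, 8 lost the call, 3 gained one and 4 turned in sign.

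The count of members called lower in PAD4 knockout, 6 as reported, was 0 with no filter on low values (8 at an unadjusted p under 0.05 with limma, in a fit that called 0 of 32199 genes). It was 3 with the replicate block, in a fit that called 1033 of 13986 genes lower. With the colon and lung marker covariate it was 0, and 0 had an unadjusted p under 0.05 in that direction. The covariate fit called 14 of 13986 genes lower and 55 higher. Leaving out single libraries gave 1 to 8 members called lower, in fits that called 530 to 1755 of 13986 genes lower. The covariate turned the sign of Fosl1 (2.65, called higher, so that 1 member was called higher against 0), Egr1 (0.54), Junb (0.46), Jun (0.36), Fosl2 (0.078) and Maff (0.023). Maff passed without each library in turn.

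For the IL-33 set the count of 9 called lower became 0 with the covariate, with all changes of the members still negative, in a fit that called 4 of 14513 genes lower. The covariate did not overlap between the groups of that set, so this fit cannot separate it from genotype. The count stayed at 9 without any single library and under the block. The count of members called with a less negative change in PAD4 knockout, 4 as reported, was 2 to 4 with single libraries left out. Those fits called 532 to 1027 of 13010 genes with a positive difference. The difference for Jund, which was not called, was -0.19 with quantile normalization and ran between -0.069 and 0.31 with single libraries left out. The cause of these shifts was not tested.

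Same-numbered libraries did not pair (correlations of -0.016, -0.113 and -0.146 for PAD4, and -0.014, 0.134 and -0.0017 for the IL-33 set), so the block stands here only. Counts over all genes, against which the members are read, moved by more than 1.5 times in at least 1 direction under these settings. They are counts and not shares, and the filter settings also change the number of genes tested. For PAD4 (1230 lower and 1243 higher of 13986 tested, as reported) they were 0 and 0 of 32199 with no filter. With a mean FPKM of at least 2 they were 762 and 934 of 8429. They were 1786 and 1916 with quantile normalization, 2939 and 2267 with array weights, and 14 and 55 with the covariate. Without knockout library 3 they were 785 and 1028, without wild-type library 1 745 and 357, and without wild-type library 3 530 and 792. For the IL-33 set (2445 and 3226) they were 4 and 5 with the covariate, 1550 and 2128 without knockout library 1, and 1604 and 2127 without knockout library 3. For the difference (804 negative and 811 positive of 13010 tested) they were 1369 and 820 of 27761 with no filter. With a mean FPKM of at least 2 they were 375 and 636 of 7937. They were 1228 and 1877 with median-of-ratios scaling, 1385 and 1750 with quantile normalization, and 2037 and 1488 with array weights. Without IL-33 knockout library 1 they were 550 and 532. Leaving out wild-type library 3 of the PAD4 set moved the median of all genes to 0.11. Since FPKM carries no depth, no counting interval could be given, and differences of Fosb rest on very low levels.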
